A study of Mus musculus with 16 samples.

Results

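Inguinal white adipose tissue (iWAT) of transgenic mice held very unequal amounts of skeletal muscle RNA, and the genes that moved with it are described here. The 8 transgenic libraries of the series were ranked by the mean log2(FPKM + 0.1) of Acta1, Ckm, Mylpf and Tnnt3, which encode skeletal actin, muscle creatine kinase, the fast myosin regulatory light chain and fast troponin T. The 4 highest were compared with the 4 lowest over the genes outside these markers, and the other 8 of the 16 libraries, from control mice, played no part in the ranking and served for the tests. The sides were thus chosen by measured values, and every gene of that comparison is given as a description with no test. FPKM counts fragments per kilobase of gene length, scaled to the size of the library.

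The study asked how hyaluronan alters gene expression in iWAT, with 4 groups of male mice, aged 8 to 10 weeks at the start, and 4 libraries in each. Has2_TG were Apn-Has2 mice, in which the adiponectin (Apn) promoter drives rtTA, a transcription factor activated by doxycycline, and rtTA in turn switches on the hyaluronan synthase Has2 in adipocytes. PH20_TG were Apn-PH20 mice, built the same way around the hyaluronidase Spam1 (PH20). Has2_WT and PH20_WT were the Apn-rtTA littermates of each line, which carry rtTA without the second transgene, and doxycycline (200 mg/kg of chow, 5 days) was fed to all 4 groups.

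Skeletal muscle fibres contract when calcium leaves the sarcoplasmic reticulum and lets myosin pull on actin, and fast fibres use their own forms of myosin, troponin, calcium pump and glycolytic enzymes. The inguinal pad lies against the muscles of the flank and thigh. Some mitochondrial genes, among them Cox7a1 and Cox8b, are expressed both in muscle and in thermogenic fat. In bulk RNA, fewer cells of a type cannot be told apart from less RNA per cell.

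The libraries held between 14421692 and 26751729 reads on genes, with a median of 18452544.5. Has2 FPKM was 1.86 and 2.27 in Has2_TG2 and Has2_TG1, the highest libraries in the markers, and 3.24 and 2.97 in Has2_TG3 and Has2_TG4, the lowest. Spam1 was at 0.158, 0.324, 0 and 0.136 FPKM in the PH20_TG libraries 4, 3, 1 and 2, and PH20_TG1, which has no Spam1 read, was kept in its labelled group. Summed FPKM of the 8 B cell genes ranged from 1.31 to 3.46 over the transgenic libraries, whereas it reached 299 in Has2_WT and 317 in PH20_WT. The macrophage list reached 1794 in the low libraries and 753 in the high libraries. The part of macrophages in the results was not tested, and a fit with the B cell genes is given with the control libraries.

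The ranking placed Has2_TG2, Has2_TG1, PH20_TG4 and PH20_TG3 on the high side, with marker scores of 6.69, 5.69, 5.28 and 2.66. PH20_TG1, PH20_TG2, Has2_TG3 and Has2_TG4 formed the low side, with 0.55, 0.35, -0.30 and -0.61. Each side thus held 2 libraries of each genotype. The score is on the log2 scale, and the gap between the last high and the first low library, 2.66 against 0.55, was smaller than the step from 5.28 to 2.66 within the high side. Acta1 FPKM was 342, 154, 103 and 20.7 in the high libraries and 1.98, 28.9, 5.77 and 7.82 in the low ones, so that PH20_TG2 exceeded PH20_TG3. Ckm FPKM was 47.5, 25.3, 16.8 and 2.53 against 1.00, 0, 0 and 0, with no overlap. Mylpf ranged from 5.36 to 67.4 FPKM on the high side and from 0.503 to 2.25 on the low side, and Tnnt3 from 5.30 to 102 against 0 to 1.66. In the controls the score was 1.69 to 3.81 in Has2_WT and 4.93 to 6.93 in PH20_WT, ranges that did not overlap.

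**Figure D1:**
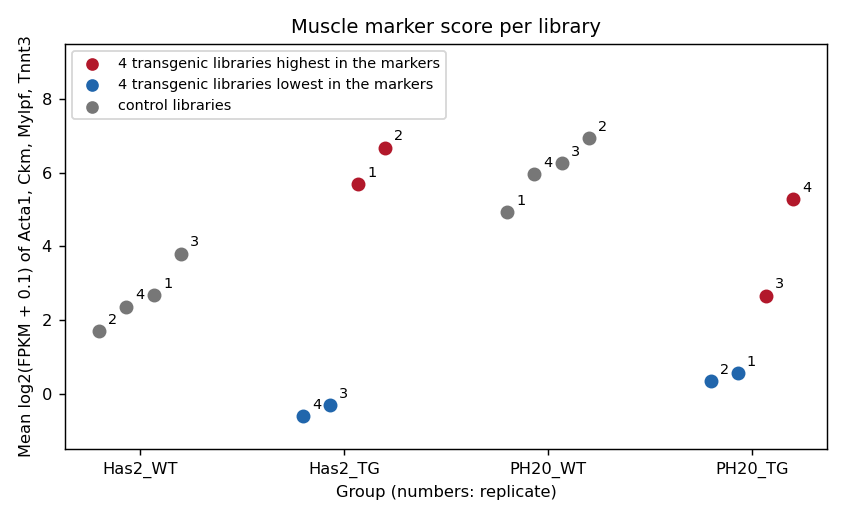
The marker score, the mean log2(FPKM + 0.1) of the 4 markers, is plotted for each of the 16 libraries by group, with the replicate number beside each point. Each transgenic group splits into 2 red (high) and 2 blue (low) libraries, and all PH20_WT libraries lie above all Has2_WT libraries.

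Of the 12369 genes outside the markers that averaged 50 reads or more in the 8 transgenic libraries, 47 were higher and 16 were lower on the high side by at least 1 on the log2 scale with no overlap between the sides. These are 0.38% and 0.129% of the genes. Without the size limit, 227 genes (1.84%) lay wholly above and 182 (1.47%) wholly below, and the median difference over all genes was -0.01. Of the 47 higher genes, 21 belonged to 8 lists of skeletal muscle genes and 26 did not.

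The contractile and calcium-handling genes of fast fibres led the higher genes. Pvalb, the calcium buffer parvalbumin of fast fibres (chromosome 15, 78191114 to 78206400, GRCm38), was at 103, 38.7, 37.6 and 4.32 FPKM on the high side and 0.673, 0, 0 and 0 on the low side. The low side's only reads were in PH20_TG1, and the difference was 7.42 on the log2(FPKM + 0.1) scale. Myh4, the myosin heavy chain of the fastest fibres (chromosome 11, 67238029 to 67260446), was at 96.5, 53.6, 27.6 and 4.92 against 2.24, 0, 0 and 0 FPKM, a difference of 7.05. Myosin heavy chain genes are close copies of each other, so reads may be shared among them. Atp2a1, the calcium pump of the fast sarcoplasmic reticulum, was at 99.3, 42.2, 27.9 and 3.26 against 1.19, 0.0434, 0 and 0 FPKM.

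The next genes were highest in Has2_TG2 and lowest, among the high libraries, in PH20_TG3. Actn3, the alpha-actinin of fast fibre Z-discs, fell from 32.8 FPKM in Has2_TG2 to 1.78 in PH20_TG3, and its highest low library, PH20_TG2, had 0.0869. Tnni2, fast troponin I, was at 59.2, 22.3, 21.3 and 2.76 against 1.13, 0.134, 0 and 0 FPKM. The sides did not overlap for either gene, and in both Has2_TG2 was the highest library. Tcap, which caps titin at the Z-disc, and Myoz1, which binds calcineurin there, had at most 3 reads in each low library, and their means on the high side were at least 73.7-fold and 69.1-fold higher. Mybpc2, fast myosin-binding protein C, ranged from 0.830 to 14.2 FPKM on the high side and reached 0.178 on the low side.

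Of the 10 fast fibre genes, 7 had enough reads to be described, all 7 lay wholly above the low side and 6 passed the size limit, with a median difference of 5.08. Of the 10 genes in the slow fibre list, 2 were described. Mybpc1, slow myosin-binding protein C, was higher by 3.53. Myl4, an atrial and embryonic light chain kept in that list, had -0.05. The other 8 genes of the list averaged at most 18.9 reads, and all 8 had a positive difference. Among the sarcomere scaffold and Z-disc genes, 17 of 28 were described and 9 were higher, with a median of 2.12. Myot, or myotilin, was at 0 reads in every low library, and its mean on the high side was at least 34.1-fold higher. Klhl41, a nebulin-stabilising protein of the sarcomere, was at 1.79, 3.98, 1.89 and 0.664 against 0, 0.0199, 0.317 and 0.227 FPKM. Has2_TG1, not Has2_TG2, was the highest library for Klhl41.

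Excitation-contraction coupling genes were described for 10 of 20 members, with 3 higher and a median of 1.80. Casq1, the calcium store of the sarcoplasmic reticulum, was at 19.2, 4.68, 7.59 and 2.06 against 2.96, 1.60, 0 and 0.834 FPKM, where PH20_TG1 exceeded PH20_TG3. Trdn, which links that store to the release channel, and the channel Ryr1 had differences of 2.46 and 2.20 with overlap. In muscle energy metabolism, 10 of 16 were described and 2 were higher, the oxygen store Mb by 4.37 and the enolase Eno3 by 1.69. Pgam2 and Pygm, the muscle phosphoglycerate mutase and glycogen phosphorylase, had 3.08 and 2.51 with overlap.

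Other parts of the fibre gave fewer calls. Of the sarcolemma and dystrophin complex, 7 of 13 were described, 0 were higher and the median was -0.19. Sgcb, a sarcoglycan, had 0.27. Of the myogenic regulators, 4 of 13 were described and 0 were higher, with Smyd1 at 0.86. The neuromuscular junction list was described by 1 of 11 genes, the acetylcholine receptor subunit Chrnb1, which lay wholly below on the high side (-0.79). The atrophy and myokine genes, which are not among the 8 muscle lists, had 4 of 8 described and 0 called. All 4 had negative differences, from -0.25 to -0.19, with a median of -0.24.

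Taking the 8 lists as a whole, 58 of 121 genes passed the minimum of reads, 21 were higher and 0 were lower, against 0.38% and 0.129% of all genes. A muscle gene could pass that minimum through the high libraries alone, so the count gives no support to the split. Of all 121 genes, 99 had a positive and 17 a negative difference whatever their reads, and 5 had no read in any of the 8 libraries. In the low libraries 28 of the 121 genes had no read at all, against 5 in the high libraries.

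**Figure D2:**
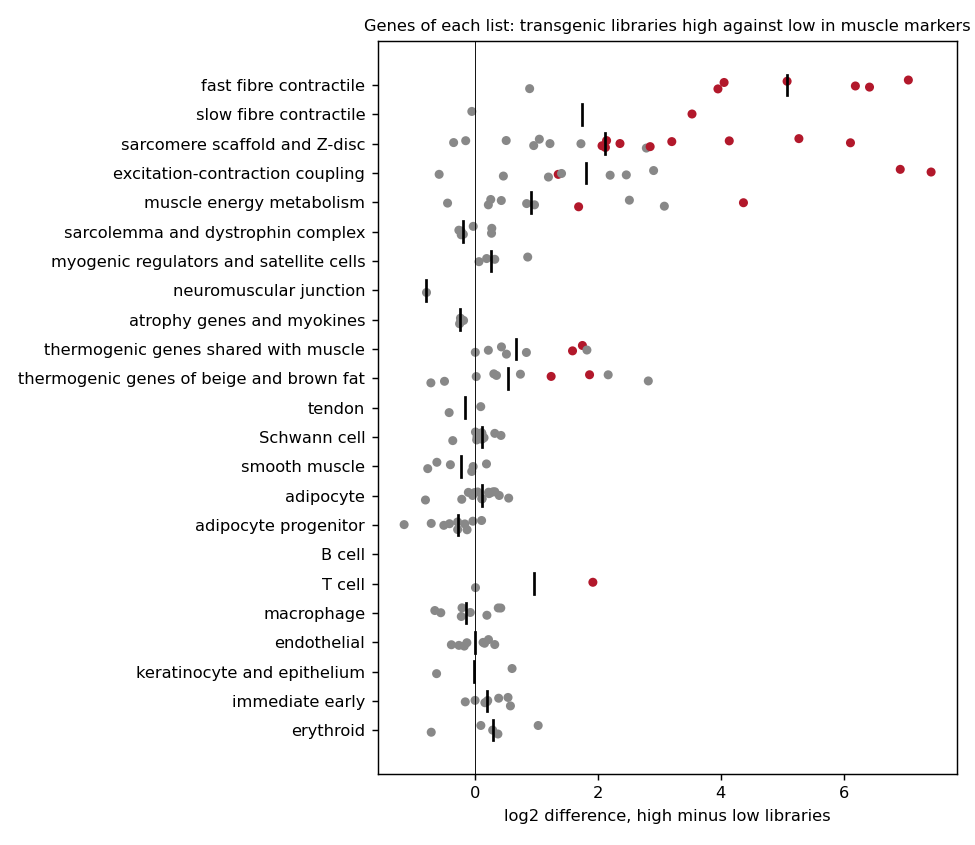
Each point is a described gene of a list, placed by its log2(FPKM + 0.1) difference between the high and the low libraries, red where it counts as higher, and the black bar is the list's median. Fast fibre genes reach 7.05 with a median of 5.08, whereas the medians of the adipocyte and macrophage lists are 0.11 and -0.14.

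Some enzymes and pumps have a muscle form and another form, and the differences of both are set side by side here. Of 20 such pairs, 14 had both described, and the muscle form had the larger difference in 12. The sides were ranked by muscle genes, and a muscle form could pass the minimum of reads through the high libraries alone. That count thus gives no support to the split. The muscle forms had a median difference of 1.28 and the other forms 0.30, with a range from -0.52 to 0.70. Atp2a2, the calcium pump of slow muscle and most other cells, was at 23.3 to 29.3 FPKM on the high side and 22.1 to 26.5 on the low side, a difference of 0.00 beside the 6.92 of Atp2a1. Actn4, the actinin of non-muscle cells, had -0.33 beside 6.42 for Actn3. Pgam1 had 0.29 beside 3.08 for Pgam2, and Pygl had 0.35 beside 2.51 for Pygm. Eno1 lay wholly higher on the high side, by 0.43, beside 1.69 for Eno3. Pairs with near-equal differences were Slc25a4 and Slc25a5, the mitochondrial ADP/ATP carriers, at 0.22 and 0.31, and Acacb and Acaca, the acetyl-CoA carboxylases, at 0.45 and 0.50.

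The promoters of the higher muscle genes, which moved together, are shown for 4 of them with 3 short spellings in capitals. These spellings are a form bound by MEF2 factors (CTA and TAG with 4 bases of any kind between them), CAGCTG, an E-box form bound by myogenic bHLH factors, and CATTCC, the MCAT form bound by TEAD factors. Each was searched on both strands, and the windows run from 250 bases before to 50 after a RefSeq start (GRCm38.p6), written 5′ to 3′ along the gene. The genes were picked for print after their matches were seen, and each holds a match. Pvalb, which had the largest difference, is not printed, and its windows held none of the 3 spellings. Ttn, which also holds the MEF2 form, is not printed either.
Klhl41, chr2:69669870-69670169, plus strand: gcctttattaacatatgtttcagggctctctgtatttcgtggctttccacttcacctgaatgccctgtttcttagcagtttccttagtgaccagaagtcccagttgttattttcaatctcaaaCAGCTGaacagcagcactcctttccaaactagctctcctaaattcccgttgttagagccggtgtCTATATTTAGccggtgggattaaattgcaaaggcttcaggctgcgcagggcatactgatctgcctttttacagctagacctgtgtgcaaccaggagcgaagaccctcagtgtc
Xirp2, chr2:67445752-67446051, plus strand: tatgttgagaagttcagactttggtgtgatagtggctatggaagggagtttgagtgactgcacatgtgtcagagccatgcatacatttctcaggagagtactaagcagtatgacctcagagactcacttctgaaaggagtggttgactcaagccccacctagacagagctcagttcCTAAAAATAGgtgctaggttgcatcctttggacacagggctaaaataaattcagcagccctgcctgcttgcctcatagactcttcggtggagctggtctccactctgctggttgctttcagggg
Atp2a1, chr7:126463024-126463323, minus strand: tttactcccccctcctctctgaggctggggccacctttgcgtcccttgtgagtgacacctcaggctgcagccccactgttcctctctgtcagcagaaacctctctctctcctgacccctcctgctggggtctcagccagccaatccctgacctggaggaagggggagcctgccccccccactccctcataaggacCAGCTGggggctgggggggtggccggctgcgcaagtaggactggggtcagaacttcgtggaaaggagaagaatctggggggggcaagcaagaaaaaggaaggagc
Myh4, chr11:67237562-67237861, plus strand: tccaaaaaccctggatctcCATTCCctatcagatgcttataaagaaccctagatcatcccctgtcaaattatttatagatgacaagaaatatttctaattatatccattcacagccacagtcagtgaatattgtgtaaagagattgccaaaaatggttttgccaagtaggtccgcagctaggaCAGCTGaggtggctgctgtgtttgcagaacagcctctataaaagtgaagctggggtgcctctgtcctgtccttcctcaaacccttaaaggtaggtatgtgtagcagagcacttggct

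In Klhl41 the MEF2 form began 63 bases and in Xirp2, which encodes an actin-binding repeat protein, 74 bases before the start. The E-box form began 67 bases before the start of Myh4 and 55 before that of Atp2a1. RefSeq promoters were at hand for 11 of the 21 higher muscle genes, in 14 windows. The MEF2 form was in 3 of the 14 windows (21.4%), against 3.69% of all 32851 windows of the same length. The E-box form was in 7 (50%, against 16.3%) and the MCAT form in 5 (35.7%, against 14.7%). The E-box windows include overlapping windows of Mb that hold the same match. Counted by gene, the E-box form was in 6 of 11 (54.5%, against 18.3% of all genes with windows). Among 26 windows of 20 higher genes outside the lists, the MEF2 form was in 0, the E-box form in 7 and the MCAT form in 6. A match is a string of letters in a window and not a site of binding.

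Thermogenic genes also differed between the sides, in another order of libraries. Cox8b, a cytochrome c oxidase subunit of heart, skeletal muscle and brown fat (chromosome 7), was at 606, 400, 516 and 976 FPKM on the high side and 208, 252, 82.1 and 223 on the low side. Its difference was 1.75, with no overlap, and PH20_TG3, the lowest of the high libraries in the markers, was the highest in Cox8b. Cox7a1, another such subunit, was at 54.8, 51.1, 53.7 and 98.7 against 37.3, 26.3, 7.69 and 23.8 FPKM, with a difference of 1.59. PH20_TG3 again stood above the other high libraries. Within the high side neither gene followed the order of the markers, which Myh4 and Pvalb did.

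Cidea, a lipid droplet protein of beige and brown adipocytes, was at 296, 401, 242 and 446 against 196, 142, 92.2 and 161 FPKM. Its sides did not overlap, and the difference was 1.24. Dio2, which activates thyroid hormone, was at 1.80, 4.32, 0.724 and 0.732 against 0.431, 0.233, 0.276 and 0.395 FPKM, also without overlap. Ucp1, the uncoupling protein of thermogenic adipocytes, was at 36.3, 206, 28.5 and 81.4 against 29.7, 11.8, 7.31 and 16.4 FPKM, where PH20_TG1 exceeded PH20_TG4. The differences of Ucp1 and of Elovl3, a fatty acid elongase of brown fat, were 2.17 and 2.82 with overlap. Pdk4, which restrains pyruvate oxidation, and the coactivator Ppargc1a had 0.84 and 0.51, also with overlap.

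Of the thermogenic genes shared with muscle, 8 of 12 were described, 2 were higher and the median was 0.67. Of those of beige and brown fat, 10 of 12 were described, 2 were higher and the median was 0.54. The summed FPKM of the shared list was 833 to 1395 on the high side and 267 to 554 on the low side. That of the beige and brown list was 507 to 999 against 334 to 504, so neither sum overlapped. Cox8b, at 400 to 976 FPKM on the high side, and Cidea, at 242 to 446, make up much of these sums. The sums thus say little about the other members. The summed FPKM of the 15 adipocyte genes overlapped, at 27010 to 34810 against 18370 to 30620. The part of muscle RNA in these differences was not tested.

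**Figure D3:**
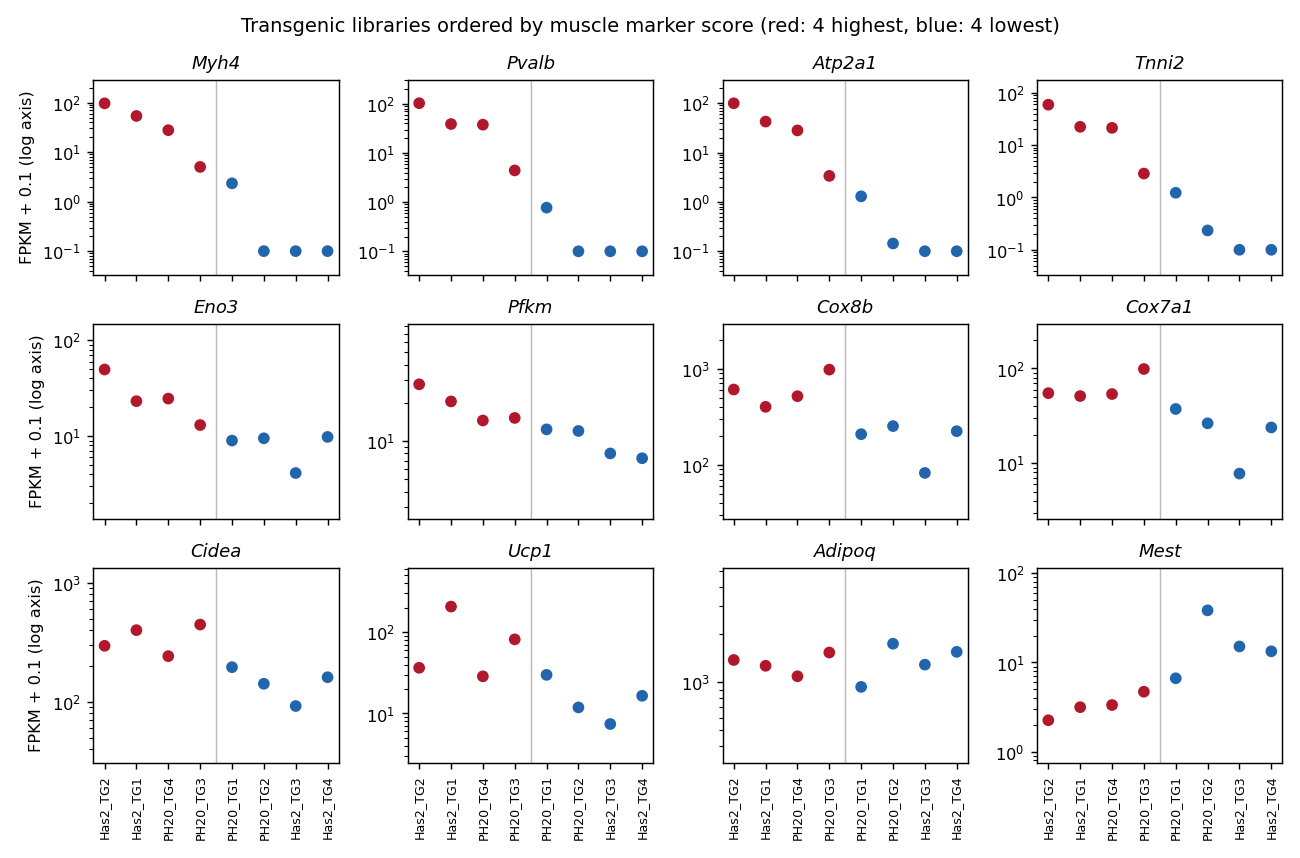
FPKM + 0.1 (log axis) of 12 genes is plotted for the 8 transgenic libraries in the order of the marker score, high libraries in red and low ones in blue. Myh4, Pvalb, Atp2a1 and Tnni2 fall along the order and reach 0 in the low libraries, whereas Cox8b, Cox7a1 and Cidea are highest in PH20_TG3 and stay well above 0 throughout.

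Among the higher genes outside the 8 lists, several are named here after their values were seen. Apobec2, a deaminase family member of skeletal and heart muscle, was at 4.83, 5.19, 4.48 and 0.901 against 0, 0.0315, 0.435 and 0.120 FPKM. Eef1a2, the translation elongation factor form of muscle and neurons, was at 7.78, 4.51, 2.83 and 0.575 against 0.532, 0.145, 0 and 0 FPKM, and PH20_TG3 and PH20_TG1 lay close together. Asb2, a ubiquitin ligase subunit of muscle and blood cells, was higher by 2.40. Other genes had small differences and high libraries at similar levels. Chchd10, a mitochondrial protein, was at 145, 103, 110 and 140 against 61.8, 66.0, 29.5 and 72.9 FPKM, and the fructose transporter Slc2a5 at 5.06, 8.57, 7.43 and 10.6 against 3.77, 3.21, 3.39 and 3.26. The pantothenate kinase Pank1 and the thioesterase Acot11 were higher by 1.26 and 1.71. Cd8a, a receptor of cytotoxic T cells, was at 0.911, 1.31, 1.43 and 1.43 against 0.433, 0.691, 0 and 0.289 FPKM. It was 1 of 9 T cell genes called, 7 of which fell under the minimum of reads.

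The 16 lower genes held no member of the 23 lists. F7, coagulation factor VII, was at 0, 0, 0.0755 and 0.387 FPKM on the high side and 10.5, 0.541, 1.06 and 0.412 on the low side, where PH20_TG1 stood far above the others. Mest, an imprinted gene of growing adipocytes, was at 2.15, 3.06, 3.24 and 4.60 against 6.55, 38.3, 15.0 and 13.2 FPKM, a difference of -2.21. Its highest library was PH20_TG2. Folh1, Adamtsl2 and Ankrd29 had -2.06, -1.84 and -1.77, and Pclaf, a factor of DNA replication, -1.37. Ift74, a protein of cilium transport, had -1.55, and Has2_TG1 had no read of it while the other high libraries lay between 1.67 and 2.25 FPKM. Emp1, a membrane protein named after its values were seen, was at 23.8 to 38.4 FPKM against 56.5 to 93.8. Leptin (Lep) overlapped, with -0.81.

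Lists of other cell types gave few calls. All members of the Schwann cell (10), endothelial (8), macrophage (8), erythroid (5) and immediate early lists (8) were described, and 0 were called. Hba-a2, of the erythroid list, had a difference of 1.03, but its sides overlapped. Only 2 of 8 tendon genes, 2 of 12 keratinocyte and epithelium genes and 6 of 9 smooth muscle genes were described, so most tendon and keratinocyte genes could not be called. Of these 0 were higher or lower by at least 1, and 2 smooth muscle genes, Mylk (-0.40) and Synpo2 (-0.77), lay wholly below. None of the 8 B cell genes reached the minimum of reads. The adipocyte list, described for all 15, had 0 called and a median of 0.11. The adipocyte progenitor list, described for all 10, had 0 called and a median of -0.28, with 1 positive difference. Pi16, a marker of those progenitors, was at 1.53 FPKM in PH20_TG3 and 12.7 in PH20_TG2 but between 106 and 201 in the other 6 libraries. Both sides held 1 such library.

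The control mice were not used in the ranking, so the same genes could be tested there. For each of 12669 genes, the slope of log2(FPKM + 0.1) on the marker score was fitted over the 8 control libraries with limma, with the study (Has2 or PH20) as a term. At an unadjusted p under 0.05, 694 slopes were positive (5.48%) and 667 were negative (5.26%). After Benjamini-Hochberg adjustment 0 passed, and the smallest adjusted p-value in limma was 0.227. A slope of 1 means that a gene doubles when the markers double.

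Actn3 had the smallest p-value of all genes. Its FPKM was 1.53, 0.396, 3.13 and 1.502 in Has2_WT1 to Has2_WT4 and 6.78, 41.4, 25.1 and 17.2 in PH20_WT1 to PH20_WT4. Within each study the library with the highest marker score, Has2_WT3 or PH20_WT2, also had the most Actn3. The slope was 1.25 (SE 0.15, limma adjusted p = 0.227). Tnni2 had a slope of 0.84 (SE 0.10), Tcap 1.24 (SE 0.18), Eef1a2 1.16 (SE 0.17) and Kcnk3, a potassium channel, 0.60 (SE 0.09), which are the 5 smallest p-values among positive slopes. Kcnk3 alone among these turned negative, to -0.11, without the study term.

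Of the 67 muscle list genes tested in the controls, 59 had a positive slope, beside 50.8% of all genes (49.2% were negative), and 23 had a positive slope at p under 0.05 (34.3%, beside 5.48% of all genes), with 0 negative. Their median slope was 0.47, beside 0.005 over all genes. Fast fibre genes gave 7 of 8, with a median slope of 1.08, excitation-contraction coupling genes 7 of 13 and energy metabolism genes 5 of 13. The sarcomere scaffold list gave 3 of 18 with a median of 0.55, and the myogenic regulators 0 of 4. The count of 23 was 14 with the replicate number as a block, 14 without PH20_WT1, 15 without PH20_WT2 and 45 without the study term. The score is itself made of muscle genes, so positive slopes of other genes of the same fibres are partly built in. A muscle gene could also pass the minimum of reads through PH20_WT alone. These counts thus give no independent support to the split.

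The genes called in the transgenic libraries were then read in the controls. Of the 47 higher genes, 40 had a positive slope and 19 passed p under 0.05 in that direction, with 0 in the other. Over all genes, 50.8% of slopes were positive and 49.2% negative, and 5.48% and 5.26% passed in these directions. The 21 muscle list members all had positive slopes, and 12 passed, on a score that is itself made of muscle genes. Of the 26 others, 19 had positive slopes and 7 passed: Eef1a2, Aspg, Acot11, Pank1, Cidea, 2210408F21Rik and Chchd10. None of these passed adjustment over all genes. Of the 14 lower genes tested, 10 had negative slopes, Pclaf passed with -0.999 and Tlcd2 passed in the other direction with 0.52.

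The slopes of thermogenic genes depended on the settings. Cidea had a slope of 0.53 (SE 0.19, limma adjusted p = 0.453) that passed the unadjusted threshold. It no longer passed without PH20_WT1 (0.30), with a B cell covariate (0.46) or without the study term (0.04). Ucp1 FPKM was 82.6, 215, 275 and 74.3 in Has2_WT and 9.98, 52.4, 32.6 and 28.4 in PH20_WT, so that the control group with less muscle RNA had more Ucp1. Its slope within studies was 0.74 (SE 0.31, limma adjusted p = 0.458), past the unadjusted threshold, and it was -0.47 when the study term was left out. Without PH20_WT1 the Ucp1 slope was 0.43 and did not pass. Cox8b and Cox7a1 had slopes of 0.46 (SE 0.33) and 0.46 (SE 0.30), neither of which passed. Pdk4 passed the unadjusted threshold with 0.49 (SE 0.18), but not without PH20_WT1 (0.26) or without the study term (0.05). In all, 4 of 10 beige and brown genes and 2 of 10 genes shared with muscle had positive slopes at p under 0.05, with 0 negative. At that threshold 5.48% of all genes had positive and 5.26% negative slopes.

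Lists of other cell types were read in the same fit, where 5.26% of all genes had a negative slope at p under 0.05 and none passed adjustment. At that threshold 4 of 5 erythroid genes, 4 of 10 adipocyte progenitor genes, 2 of 8 macrophage genes and 2 of 9 Schwann cell genes had negative slopes. Positive slopes passed for 3 of 15 adipocyte genes, beside 5.48% of all genes. All 8 B cell and all 9 T cell genes had negative slopes, beside 49.2% of all genes. Their medians were -2.28 and -1.64, but 1 of each list passed. Among the 5 negative slopes with the smallest p-values were Rps27 (-1.03, SE 0.15), Capg (-0.78, SE 0.13) and Clic1 (-0.64, SE 0.12). All 5, which include Tnfaip8l2 and Slc15a3, turned positive without the study term. When the mean of the B cell genes was added to the fit, 23 muscle list genes had positive slopes at p under 0.05.

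**Figure D4:**
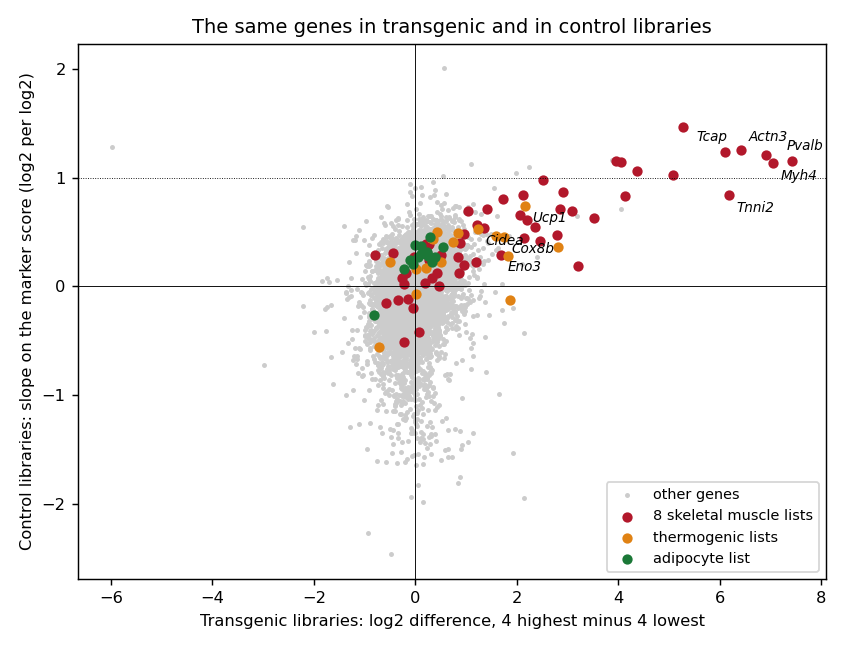
Each point is 1 of the genes measured in both sets, with its log2 difference between high and low transgenic libraries on the x axis and its slope on the marker score in the control libraries on the y axis (dotted line: a slope of 1). Muscle list genes in red extend to the upper right, up to Pvalb at 7.42 and 1.15, and the genes of the adipocyte list in green lie between -0.81 and 0.55 on the x axis.

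The same genes were read in the comparison of each line with its littermates. In the PH20 line, Myh4 FPKM was 32.0, 126, 70.6 and 44.9 in PH20_WT against 2.24, 0, 4.92 and 27.6 in PH20_TG, with every transgenic library below every control. Its log2 change was -4.65 (SE 1.45, limma adjusted p = 0.666). Of 12532 genes tested in limma, 401 rose (3.2%) and 425 fell (3.39%) at p under 0.05, and 0 passed adjustment. Of the 68 tested genes of the 8 muscle lists, 36 fell and 0 rose, with a median change of -1.40. Lymphocyte lists fell at similar shares, 5 of 8 B cell genes (median -3.12) and 5 of 9 T cell genes (median -2.16), and 0 of either rose. A gene could pass the minimum of reads through PH20_WT alone, and such a gene could only fall, which favours falls in these counts. Summed FPKM of the B cell genes was 3.83 to 317 in PH20_WT. With the marker score as a covariate, 2 of the 68 fell, Trdn (-1.51) and the muscle sodium channel Scn4a (-1.91), and the median was -0.01. The score is made of 4 muscle genes, so that this covariate takes up the muscle lists by construction. Over all genes, 210 rose (1.68%) and 134 fell (1.07%) with it.

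Among the higher genes outside the lists, Apobec2, Eef1a2 and Asb2 had log2 changes of -3.71, -2.93 and -1.37 in PH20_TG against PH20_WT, each past the unadjusted threshold. This comparison shares the PH20_TG libraries with the ranking. Cox8b, Cox7a1 and Cidea had changes of -0.03 (SE 0.52), -0.13 (SE 0.48) and -0.26 (SE 0.44), none of which passed.

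**Figure D5:**
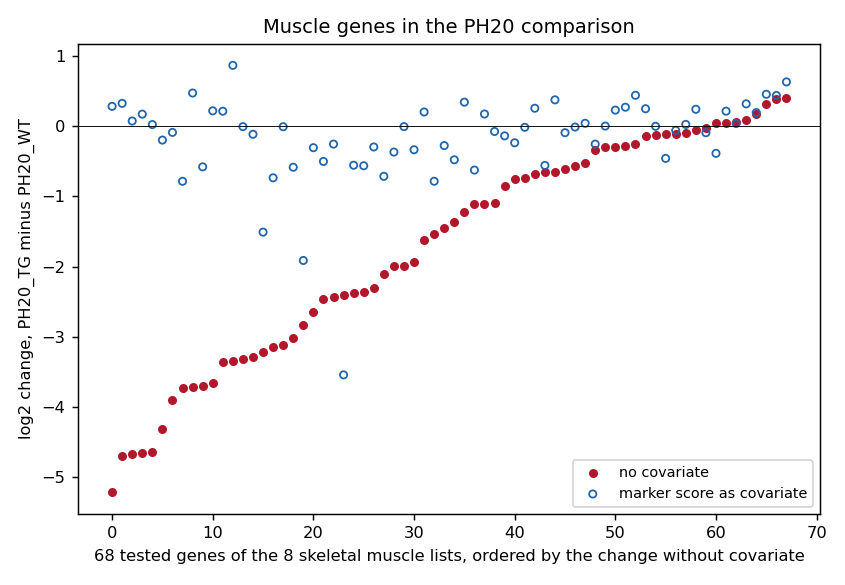
The log2 change of PH20_TG against PH20_WT is plotted for the 68 tested genes of the 8 muscle lists, ordered by the change without a covariate (red) and with the marker score as a covariate (open blue). Red points reach -5.22 for Pvalb and have a median of -1.40, and the open points have a median of -0.01.

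In the Has2 line the controls lay between the transgenic libraries, with Myh4 at 13.2, 1.80, 13.8 and 7.27 FPKM in Has2_WT against 53.6, 96.5, 0 and 0 in Has2_TG. The log2 change was -1.41 (SE 2.23, limma adjusted p = 0.882). Of 12606 genes, 788 rose (6.25%) and 473 fell (3.75%) at p under 0.05. Of the 60 tested muscle list genes, 5 rose and 0 fell: Ak1, Lama2, Flnc, Synm and Ldb3, with Lama2, a laminin chain of basement membranes, at 1.37 and Flnc, filamin C, at 1.66. With the marker score as a covariate 818 of all genes rose (6.49%) and 507 fell (4.02%), and 9 of the 60 rose and 3 fell, Myh4, Atp2a1 and Tnni2. Of the 26 genes outside the lists that were higher in the muscle-rich transgenic libraries, 0 rose and 5 fell in Has2_TG against Has2_WT without the covariate, Acot11 (-2.72), Ttc25 (-2.04), Slc2a5 (-1.77), Pank1 (-1.31) and Spsb3 (-1.01). The Has2_TG libraries were also used in the ranking.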

How the data were processed

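Bulk RNA of iWAT was sequenced in 16 libraries. Per the labels, the authors aligned reads to GRCm38 with STAR (version 2.7.9a), and the authors deposited gene FPKM for each library. Deposited FPKM values carry a scaling between libraries (total over summed reads 0.886 to 1.14), which is proportional to median-of-ratios size factors. Of these values 100% gave whole reads (tolerance 0.01). The 120 pairs of libraries were checked, and the closest had a chi-square per degree of freedom of 28.7, so that none was a duplicate.

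The 54532 genes were grouped by the labels, and the sides by the ranking of markers. A gene was higher or lower at a log2(FPKM + 0.1) difference of at least 1 with no overlap, given a mean of at least 50 reads. A floor of 3 reads per library gave lower bounds, for counting error only. Control slopes and genotype contrasts were tested with limma (version 3.58.1, R version 4.3.3), moderated, two-sided and with a variance trend. This replaces the count-based test that the study names, since the unit is FPKM. The procedure was tested on simulated data. Whether replicates of a group came from separate mice is not labelled beyond their numbers, so p-values measure the spread between libraries.

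The members, lists and pairs were chosen with earlier results of these data known. The genes named are the markers, the 8 largest differences in each direction, up to 4 per list, the 5 smallest p-values of the slopes in each direction, the isoform pairs and Has2, Spam1, Ucp1, Cidea, Cox7a1, Pdk4 and Ppargc1a; exceptions are marked. Results were recomputed with a pseudocount of 1, without the minimum of reads, from a mean FPKM of 1 up, with other scalings, other rankings, no variance trend and no study term, with the replicate number as a block, covariates and each library left out. Scaling by each library's own sum of reads was added after the data were seen. Median-of-ratios scaling was also run but repeats the deposited values. Promoters came from RefSeq tables.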

Additional observations from a re-analysis of the deposited data

Results flagged for a closer look

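The highest or lowest library of a group of 4 was compared with the nearest of the others, and 15 of 158 such groups held a library far from the rest. That share has no rate to be set against, since many groups are sides formed by the ranking and some hold libraries tied at 0. In PH20_TG4, the small RNA gene Gm23935 took 0.478% of reads, against 0.0276% to 0.0342% in the other PH20_TG libraries. The atrophy and myokine score (mean log2(FPKM + 0.1)) was 0.47 in Has2_TG2 and between -0.43 and -0.33 in the other Has2_TG libraries. The smooth muscle score was 0.52 in Has2_WT1 and 1.21 to 1.33 in the other Has2_WT libraries. The keratinocyte and epithelium score was -0.64 in Has2_TG4 and -2.67 to -2.50 in the other Has2_TG libraries.

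Among the 4 high transgenic libraries, Cox7a1 was at 98.7 FPKM in PH20_TG3 and 51.1 to 54.8 in the others, and Ift74 was at 0 in Has2_TG1 and 1.67 to 2.25 in the others. Among the 4 low ones, PH20_TG1 stood above the others in Pvalb (0.673 FPKM), Myh4 (2.24), Atp2a1 (1.19) and Mybpc2 (0.178), where the others reached at most 0.0434. PH20_TG2 alone had reads of Actn3 (0.0869 FPKM), Tcap (0.0530), Myoz1 (0.0797) and Mb (0.135). Eno3 was lowest in Has2_TG3, at 4.02 FPKM against 8.89 to 9.71. Most of these genes lie near 0 in the other low libraries. Tcap and Myoz1 had at most 3 reads in any low library, so a few reads decide their gap. Pvalb, Myh4, Atp2a1 and Mybpc2 had more than 3 reads in PH20_TG1.

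The difference between the lines in their response was tested for all genes with an interaction term in limma, and 0 of 12593 passed adjustment (smallest adjusted p = 0.567).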

How the results depend on the processing

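With a pseudocount of 1, the transgenic comparison had 30 higher and 6 lower genes in place of 47 and 16, and with no minimum of reads 186 and 56, of which 34 of the higher ones were in the muscle lists in place of 21. Leaving out 1 library in turn gave 49 to 121 higher genes, 16 to 78 lower genes and 16 to 35 higher muscle genes, the lowest without Has2_TG2. Fewer libraries ease the rule of no overlap, so a rise in these counts is partly built in. The muscle count was over 1.5 times higher without PH20_TG3 (35), and 121 higher genes came without PH20_TG2. With a pseudocount of 1 the difference of Pvalb was 4.74 and that of Myh4 4.52.

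In the controls, 14 slopes passed adjustment without the study term and 0 with it, and 0 to 1 with 1 library left out. Muscle genes with a positive slope at p under 0.05 numbered 23, and 14 with the replicate number as a block, 45 without the study term and 14 to 28 with 1 library left out. Those with a negative slope numbered 0, and 2 with a pseudocount of 1, 1 each with own-sum scaling, no variance trend, the block and without Has2_WT2 and PH20_WT2, the farthest from the median score, and 0 to 2 with 1 library left out. Without the study term, slopes changed sign for Eno1 (-0.12), Acaca (-0.21), Acacb (-0.19), Pgam1 (-0.17), Pygl (-0.15), Pfkl (-0.12), Hk2 (-0.27), Ucp1 (-0.47), Kcnk3 (-0.11), Rps27 (0.15), Clic1 (0.0652), Cd68 (0.14), Capg (0.0732), Tnfaip8l2 (0.0068), Dpp4 (0.0793) and Slc15a3 (0.0697). The study and the score are partly confounded, since the scores of the control groups did not overlap.

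Over the muscle lists and the 4 markers, 5 genes rose and 0 fell in Has2_TG, and 10 rose and 3 fell with the marker score as a covariate. With 1 library left out, 2 to 10 rose and 0 fell. In PH20_TG 0 rose and 40 fell, 0 rose and 45 fell without the minimum of reads, and 2 fell with that covariate. With 1 library left out, 0 to 1 rose and 36 to 44 fell. That covariate turned the sign for Pvalb (0.29), Myh4 (0.0254), Tnnt3 (0.14), Atp2a1 (0.0762), Ckm (0.17), Actn3 (0.17), Tcap (0.33), Mybpc2 (0.22) and Myoz1 (0.48). The replicate numbers do not pair the libraries: same-number correlations ranged from -0.42 to 0.54, and with the block 5 genes rose in Has2_TG and 42 fell in PH20_TG. Median-of-ratios scaling is the deposited scaling up to a constant, so its equal counts were fixed in advance and are no check. Low counts limit most muscle genes: 63 of 121 fell under 50 reads.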
